A study of Mus musculus with 4 samples.

Results

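Genomic imprinting leaves a gene expressed mainly from the maternal or from the paternal allele, through methylation that is set in the germ line at control regions of each domain. H19, Meg3, Rian and Mirg are maternally expressed RNAs without a protein product, and Igf2, Dlk1, Peg3, Peg10, Mest and Plagl1 are paternally expressed genes that act mostly on growth. In male germ cells the imprints of the H19/Igf2 and Dlk1/Meg3 domains are carried by methylation on the paternal pattern, whereas fibroblasts hold both parental patterns. The 10 genes were taken from the count tables by their symbols and made up 10 of the 32285 genes listed. UMI counts (counts of distinct captured RNA molecules) do not show the parental allele, so the values below are total levels.

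The cells came from primary spermatogonial cultures of mouse testis, started from 3 males at postnatal day 6, selected for the surface antigen Thy1 and grown on STO feeder cells, a mouse embryonic fibroblast line. C57BL/6 is the strain named for the study's animals. Cultures were exposed for 3 days to PBS (vehicle, libraries vehicle 1 and vehicle 2) or to 1 µg/mL of extracellular vesicles (EVs) isolated from testes of mice at postnatal day 7 (library EV 1). A second EV library was not analysed here for expression, so the EV arm had 1 library and no replicate check. After filtering, 8263, 8637 and 4779 cells remained in vehicle 1, vehicle 2 and EV 1, with at most 22 cell barcodes shared between any pair of libraries.

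Cells were placed in a class by UMIs of Dazl, Tex15, Stk31 and Epcam (germ) or of Col1a1, Col1a2, Sparc and Dcn (feeder), with at least 2 UMIs of one set and more than of the other. Germ cells numbered 4411, 4783 and 227, feeder cells 2357, 2473 and 2508, and cells of neither class 1495, 1381 and 2044. Germ cells were thus 53.4%, 55.4% and 4.75% of the kept cells, and the 227 germ cells of EV 1 held only 325012 UMIs against 9445041 and 11013433 in the vehicle libraries. Levels are given as CPM, the usual depth-scaled count, from the UMIs of a gene and all UMIs of its class in a library, and 3 UMIs would be 9.23 CPM in EV 1 germ cells and at most 0.442 CPM in each other germ or feeder sum. All intervals are 95% intervals for counting error only.

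The labels of the classes were checked with genes that the rule did not use. The summed level of 6 germ cell genes (Ddx4, Dnd1, Sall4, Mael, Tdrd5 and Taf4b) was 511 to 527 CPM in germ cells and 3.39 to 16.3 CPM in feeder cells. The summed level of 10 fibroblast genes was 2177 to 2467 CPM in feeder cells, and 258, 231 and 458 CPM in germ cells of vehicle 1, vehicle 2 and EV 1. Leydig, peritubular myoid, macrophage and endothelial marker lists each summed to at most 24.6 CPM in either class. The Sertoli list reached 284 to 304 CPM in feeder cells, of which Sox9 gave 275 to 298 CPM, while Amh had 2 UMIs in vehicle 2 and 0 in the other 2 libraries.

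The 10 genes lie on 4 chromosomes of GRCm38 (GENCODE vM21). H19 (ENSMUSG00000000031) is at chr7:142575529-142578143 and Igf2 (ENSMUSG00000048583) at chr7:142650766-142666816, both on the minus strand and 72.6 kb apart. On the plus strand of chromosome 12 follow Dlk1 (ENSMUSG00000040856, chr12:109452823-109463336), Meg3 (ENSMUSG00000021268, chr12:109541001-109571726), Rian (ENSMUSG00000097451, chr12:109603940-109661716) and Mirg (ENSMUSG00000097391, chr12:109729764-109749460). The gaps between these neighbours are 77.7, 32.2 and 68.0 kb. Peg3 (ENSMUSG00000002265) is at chr7:6703892-6730431 on the minus strand. Peg10 (ENSMUSG00000092035, chr6:4747306-4760517), Mest (ENSMUSG00000051855, chr6:30723547-30748465) and Plagl1 (ENSMUSG00000019817, chr10:13060504-13131694) are on the plus strand. Igf2 overlaps Igf2os and Mest overlaps Gm44296 and Copg2 on the opposite strand.

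Several of these genes are hosts of microRNAs, short RNAs that repress transcripts paired to their seed, and a selection of the sequences is shown. In RefSeq (GRCm38.p6), mature microRNAs on the same strand lie inside H19 (2), Igf2 (2), Meg3 (3), Rian (6), Mirg (26) and Mest (2), and the table lists none inside Dlk1, Peg3, Peg10 or Plagl1. Capitals mark the seed, bases 2 to 8. The libraries count the host transcripts and not the mature microRNAs.
miR-675-5p: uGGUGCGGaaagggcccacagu
miR-675-3p: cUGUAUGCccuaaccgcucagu
miR-483-3p: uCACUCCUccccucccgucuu
miR-770-5p: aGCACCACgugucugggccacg
miR-370-3p: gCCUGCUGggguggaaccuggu
miR-410-3p: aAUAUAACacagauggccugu
miR-453: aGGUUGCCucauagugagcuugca
miR-496a-5p: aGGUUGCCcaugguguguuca
miR-335-5p: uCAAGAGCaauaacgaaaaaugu

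miR-675-5p (chr7:142577112-142577133) and miR-675-3p (chr7:142577078-142577099) lie in an exon of 3 of the 4 H19 transcripts that span them. miR-483-3p (chr7:142654932-142654952) is intronic in all 7 Igf2 transcripts around it, and miR-335-5p (chr6:30741314-30741336) is intronic in all 7 Mest transcripts around it. Of the microRNAs of the chromosome 12 domain, miR-770-5p (chr12:109563710-109563731) is exonic in 1 of 4 Meg3 transcripts, miR-370-3p (chr12:109618305-109618326) is intronic in Rian, and miR-410-3p (chr12:109743764-109743784) is exonic in all 5 Mirg transcripts around it. miR-453 (chr12:109735669-109735692) and miR-496a-5p (chr12:109739132-109739152), both intronic in Mirg, share their seed, and no other pair among the 41 mature sequences does.

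The first comparison asked in which of the co-cultured cell classes each imprinted gene was expressed. Dlk1 and Peg3 were higher in feeder cells, and Mest, Meg3, Rian, Igf2, Peg10 and Plagl1 were higher in germ cells. Mirg did not pass the test, and H19 was too rare to be tested. The test was edgeR's quasi-likelihood test on the 6 sums of UMIs (2 classes in 3 libraries) with the library as a block, and log2 differences are feeder minus germ with their SE. The classes differ throughout the transcriptome, so 41.8% of the 15637 genes tested were called higher in feeder cells and 40.2% higher in germ cells, around a median difference of 0.03. Scaling to library totals in place of TMM, the scaling of the test, moves that median to -0.35 and the split to 33.5% and 50.8%, so log2 differences are relative to the median of all genes and lie nearer to feeder cells than the CPM do. Against that background, 2 of the 9 imprinted genes tested were called higher in feeder cells and 6 higher in germ cells. Igf2 and Peg10 entered the test only through their germ cell level, since no feeder sum reached the filter of 1.05 CPM.

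**Figure D1:**
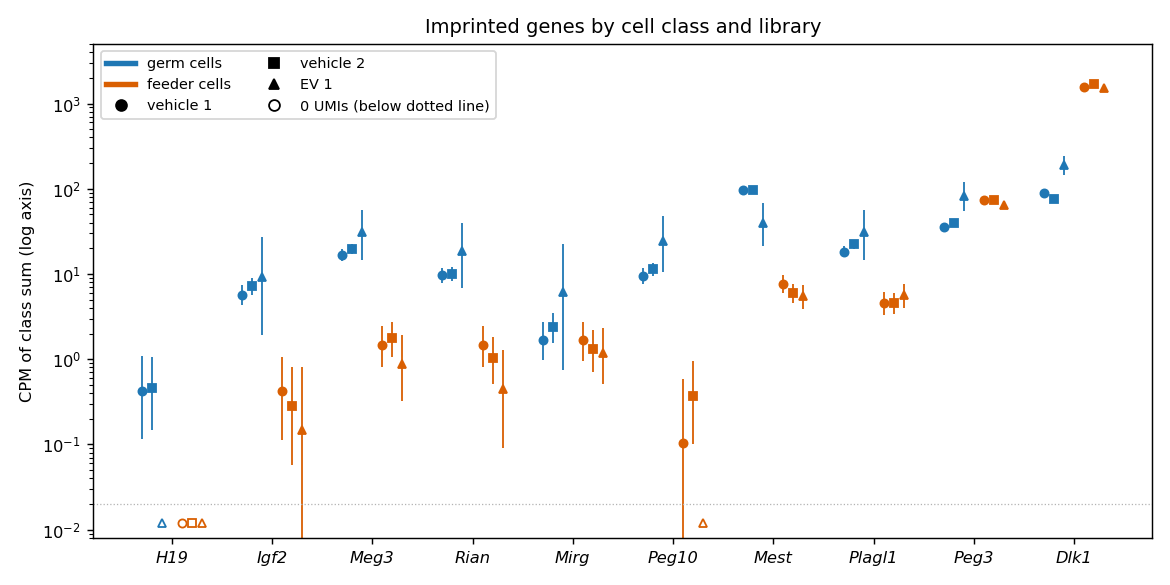
CPM (log axis) of the 10 imprinted genes in germ cells (blue) and feeder cells (orange) of vehicle 1 (circle), vehicle 2 (square) and EV 1 (triangle), with exact Poisson 95% intervals. Open symbols under the dotted line are sums with 0 UMIs. Dlk1 stands at 1532 to 1691 CPM in feeder cells, and Mest at 96.5 and 97.7 CPM in vehicle germ cells against at most 7.64 CPM in feeder cells.

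Dlk1 encodes a transmembrane protein of the Notch ligand family that holds back the differentiation of precursor cells such as preadipocytes. It reached 1578, 1691 and 1532 CPM in the feeder cells of the vehicle libraries and EV 1, in that order, against 90.1, 75.5 and 191 CPM in germ cells. The feeder mean of the vehicle libraries, 1634 ± 80.0 CPM (SD, n = 2), was 19.7 times the germ mean, and every feeder value lay above every germ value, with a log2 difference of 4.44 ± 0.196 (edgeR adjusted p = 3.03e-19). Cells of neither class stood between them, at 575, 500 and 1043 CPM.

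In droplet data, RNA released from broken cells gives UMIs to all cells, so each germ level was set beside that of fibroblast genes. The germ level of Dlk1 was 5.71%, 4.46% and 12.5% of the feeder level in vehicle 1, vehicle 2 and EV 1. For the 10 fibroblast genes the median of the same percentage was 9.74%, 8.95% and 17.0%, and 9, 8 and 7 of the 10 had a higher percentage than Dlk1. Col5a2 was lower than Dlk1 in all 3 libraries, at 3.35%, 3.17% and 6.86%. The germ level of Dlk1 was thus below the median of the fibroblast genes and within their range, and no expression of Dlk1 in germ cells is read from it.

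Peg3 encodes a zinc finger protein with roles in growth and nurturing behaviour. Its feeder levels were 74.4, 73.1 and 63.8 CPM, and its germ levels 36.0, 39.5 and 83.1 CPM. Feeder cells were higher in the vehicle libraries and germ cells were higher in EV 1, where the germ sum held 27 UMIs and its interval of 54.7 to 121 CPM covered the feeder value. Over the 3 libraries the difference was 1.25 ± 0.109 (edgeR adjusted p = 5.96e-12), and 0.90 ± 0.114 (edgeR adjusted p = 6.40e-06) with library totals. The germ level was 48.4% and 54.1% of the feeder level in the vehicle libraries, above the median of the fibroblast genes. Fbn1 and Col5a1, in the same list, were also high in germ cells, at 159% and 55.6% of the feeder level in vehicle 1.

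Mest encodes a protein of the alpha/beta hydrolase fold that is abundant in embryonic mesoderm. Germ cells had 96.5, 97.7 and 40.0 CPM of Mest, and feeder cells had 7.64, 5.95 and 5.45 CPM. Every germ value lay above every feeder value, and the vehicle germ mean of 97.1 ± 0.881 CPM (SD, n = 2) was 14.3 times the feeder mean. The log2 difference was -3.37 ± 0.136 (edgeR adjusted p = 6.17e-20). Copg2, which overlaps Mest on the opposite strand, had 87.0, 91.3 and 135 CPM in germ cells and 47.9, 52.7 and 61.0 CPM in feeder cells, and its part in the Mest counts was not tested.

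Plagl1 encodes a zinc finger transcription factor that slows the cell cycle. Its levels were 18.3, 22.2 and 30.8 CPM in germ cells and 4.60, 4.56 and 5.60 CPM in feeder cells, with no overlap between the classes. It had the smallest of the 6 differences called towards germ cells, at -1.79 ± 0.161 (edgeR adjusted p = 7.91e-12). The feeder level was 25.1%, 20.5% and 18.2% of the germ level, whereas the 6 germ cell genes had 1.45% to 4.60% in the vehicle libraries and 0.168% to 1.60% in EV 1.

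Peg10, derived from a retrotransposon and needed for the placenta, had 9.53, 11.3 and 24.6 CPM in germ cells. In feeder cells it had 1, 4 and 0 UMIs, so that its difference of -5.53 ± 0.422 (edgeR adjusted p = 1.50e-13) rests on a feeder level of at most 0.372 CPM. As a percentage of the germ level, the feeder level was 1.10%, 3.28% and 0%, beside 2.14% to 4.24%, 1.45% to 4.60% and 0.168% to 1.60% for the 6 germ cell genes. With so few feeder UMIs, its place among these genes cannot be told at this depth.

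Igf2, the fetal growth factor that signals through Igf1r, had 54, 79 and 3 UMIs in germ cells, or 5.72, 7.17 and 9.23 CPM. Feeder cells held 4, 3 and 1 UMIs of it. The difference was -3.99 ± 0.415 (edgeR adjusted p = 2.34e-10). H19, its neighbour in the domain, was close to the limit of detection, with 4, 5 and 0 UMIs in germ cells and 0 UMIs in all 3 feeder sums. A count of 0 was taken to allow up to 3 UMIs, which would be 0.314, 0.279 and 0.442 CPM in the feeder sums, beside germ levels of 0.424 and 0.454 CPM in the vehicle libraries, so no fold is given. No germ cell of either vehicle library held UMIs of both H19 and Igf2. Only 4 and 5 germ cells held H19, and Igf2 was in 1.20% and 1.65% of the others. A cell with both was thus not to be looked for at this depth, and no exclusion is read from it.

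The 3 noncoding RNAs of the Dlk1 domain did not follow Dlk1. Meg3 had 16.6, 19.5 and 30.8 CPM in germ cells and 1.46, 1.77 and 0.884 CPM in feeder cells, a difference of -3.27 ± 0.224 (edgeR adjusted p = 1.01e-14). Rian, a host of small nucleolar RNAs, had 9.63, 9.99 and 18.5 CPM in germ cells and 1.46, 1.02 and 0.442 CPM in feeder cells, a difference of -2.82 ± 0.294 (edgeR adjusted p = 2.34e-10). For both, each germ value lay above each feeder value, while Dlk1, 77.7 kb before Meg3, had the opposite order.

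Mirg, the last gene of the array and host to 14 microRNA loci, was low in both classes. Its levels were 1.69, 2.36 and 6.15 CPM in germ cells and 1.67, 1.30 and 1.18 CPM in feeder cells, with 2 UMIs behind the highest value. Its difference of -0.22 ± 0.387 did not pass the test (edgeR adjusted p = 0.602) and the other sums held only 8 to 26 UMIs. The feeder level of Meg3 was 8.81%, 9.05% and 2.87% of its germ level, above the 1.45% to 4.60% of the germ cell genes in the vehicle libraries, and that of Mirg was 98.8%, 55.1% and 19.2%.

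**Figure D2:**
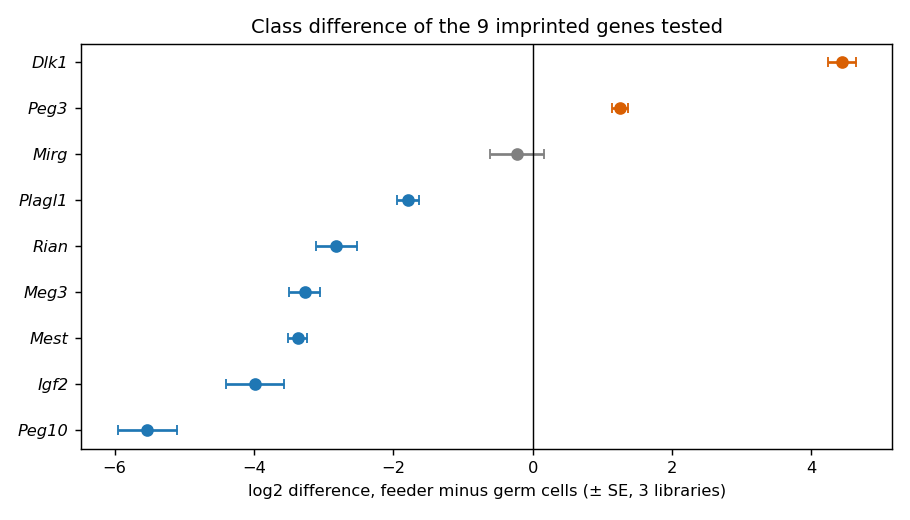
Log2 difference (feeder minus germ cells) of the 9 imprinted genes tested, with the SE derived from the edgeR test on the sums of 3 libraries. Orange points were called higher in feeder cells, blue points higher in germ cells, and the grey point (Mirg) was not called. The values run from -5.53 for Peg10 to 4.44 for Dlk1.

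The share of cells with a UMI was compared after each cell had been thinned to 1000 UMIs, which left out 146, 112 and 49 germ cells and 86, 56 and 184 feeder cells. Dlk1 was detected in 62.4%, 62.2% and 60.6% of feeder cells and in 9.54%, 7.47% and 11.2% of germ cells. Without thinning, the shares were 84.6%, 84.8% and 78.4% in feeder cells, whose median depth was 3635, 3896 and 2447.5 UMIs, and 17.0%, 15.2% and 18.5% in germ cells, whose median depth was 1936, 2091 and 1322 UMIs. The feeder share of Dlk1 was close to that of Fn1 (fibronectin), with 61.6%, 62.6% and 62.7%. Fn1, too, was found in germ cells, in 12.7%, 11.3% and 15.7%.

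Among the genes of germ cells, Mest was detected in 7.50%, 8.16% and 2.25% of thinned germ cells and in 1.23%, 0.662% and 0.473% of feeder cells. Without thinning, the Mest shares were 14.7%, 16.0% and 4.41% in germ cells and 2.80%, 2.26% and 1.48% in feeder cells. Peg3 was found in 3.24%, 3.51% and 7.30% of germ cells and 6.83%, 6.62% and 5.81% of feeder cells. Meg3, Plagl1 and Peg10 were each found in 1.07% to 2.10% of vehicle germ cells. Most germ cells thus gave no UMI of any of these genes at this depth, which limits what can be said of single cells. H19 was found in 0 of 2271, 0 of 2417 and 0 of 2324 feeder cells, which allows a share of cells with a UMI of up to 0.132%, 0.124% and 0.129%.

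Dlk1 varied among feeder cells by more than counting alone would give. At 1000 UMIs a feeder cell held a mean of 1.68, 1.72 and 1.55 Dlk1 UMIs in vehicle 1, vehicle 2 and EV 1, and the variance was 2.72, 2.83 and 2.68 times the mean, where counting alone gives 1. Cells without a Dlk1 UMI were 37.6%, 37.8% and 39.4% of feeder cells, against 18.7%, 17.9% and 21.2% for a Poisson distribution of the same mean. The tenth of cells with the most held 40.0%, 39.7% and 41.0% of the Dlk1 UMIs, and single cells reached 15, 18 and 16. The 3 libraries were alike in this. Of the other genes, Mest in vehicle germ cells had a variance of 1.25 and 1.29 times its mean, and Peg3 one of 1.03 to 1.15 in both classes. Their means were far lower, at 0.0879 and 0.0963 UMIs for Mest and at most 0.0744 UMIs for Peg3. The ratio of variance to mean moves towards 1 as the mean falls, so it does not rank these genes against Dlk1.

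**Figure D3:**
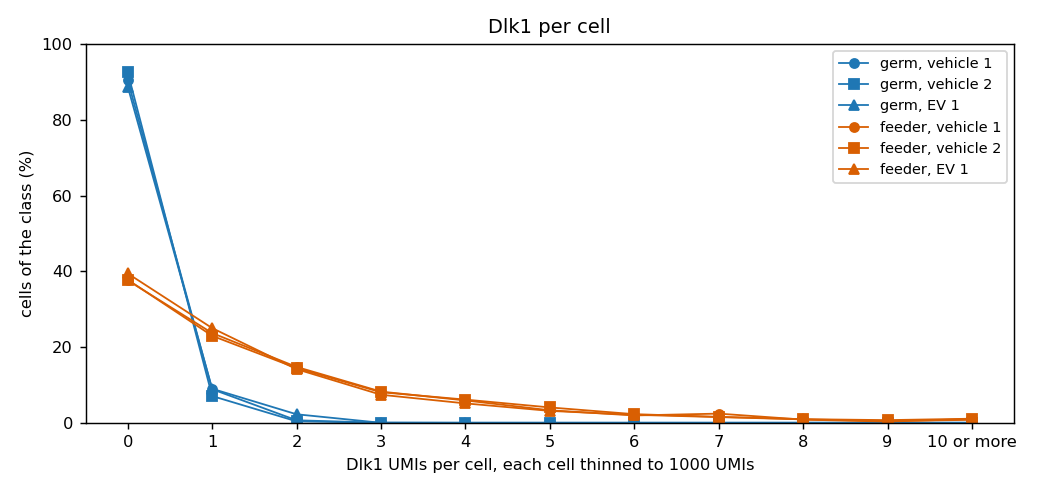
Percentage of cells of a class (vertical axis) by the number of Dlk1 UMIs (horizontal axis) after each cell was thinned to 1000 UMIs, for germ cells (blue) and feeder cells (orange) of each library. Feeder cells run from 37.6% to 39.4% without a UMI to a tail of 10 or more, and germ cells lie almost wholly at 0 and 1.

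The genes most like Dlk1 were sought among 6360 genes detected in at least 5% of feeder cells of every library, by the correlation of log-scaled levels across feeder cells. The highest mean r over the 3 libraries was that of Spp1 (osteopontin), with 0.480, 0.460 and 0.400, then Ctsl (cathepsin L), with 0.465, 0.476 and 0.360, and Tm4sf1, with 0.318, 0.330 and 0.251. These are descriptions over cells that share a library and differ in depth. For Igf2, Meg3, Rian, Mirg, Peg3, Mest and Plagl1 no gene had r of at least 0.2 in every library. All of them were detected in far fewer feeder cells than Dlk1, which holds r down, so this does not set Dlk1 apart. H19 and Peg10 could not be scored, as feeder cells of EV 1 held no UMI of either. Meg3 and Rian UMIs met in 5 and 11 unthinned germ cells of vehicle 1 and vehicle 2, that is in 3.40% and 5.42% of cells with Meg3 against 1.95% and 2.10% of the others. The cells with Meg3 were deeper, with medians of 2344 and 2616 against 1925 and 2079 UMIs.

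Within feeder cells, Dlk1 was compared between states that differed in frequency between libraries. Feeder cells with a UMI of the proliferation genes Mki67 or Top2a had less Dlk1 than the others, with ratios of 0.789 (0.753 to 0.828), 0.775 (0.741 to 0.811) and 0.822 (0.718 to 0.936) in vehicle 1, vehicle 2 and EV 1. Feeder cells above the median of the metallothioneins Mt1 and Mt2, small metal-binding proteins, had 1884, 1925 and 1650 CPM of Dlk1 against 1396, 1557 and 1114 CPM in the others. The ratios of these were 1.35 (1.31 to 1.39), 1.24 (1.20 to 1.27) and 1.48 (1.41 to 1.56), so that all 3 libraries had the same order for both states. For Peg3 the ratios between the metallothionein groups were 0.887, 0.988 and 0.910, and each interval included 1.

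Within germ cells, Mest was lower where Stra8 or Kit, markers of the onset of differentiation, had a UMI. Vehicle germ cells with a UMI of either had 68.6 and 67.5 CPM of Mest, and those without had 112 and 116 CPM, a ratio of 0.614 (0.526 to 0.713) and 0.583 (0.507 to 0.669). In EV 1 the order was the reverse, with 120 CPM and 22.5 CPM on 7 and 6 UMIs, a ratio of 5.34 (1.54 to 19.2). Plagl1 was higher in germ cells with Mki67 or Top2a UMIs, by 1.52 (1.03 to 2.32) and 1.62 (1.14 to 2.34) in the vehicle libraries. Meg3 and Igf2 had ratios between 0.821 and 1.09 in both splits of vehicle germ cells, and every interval included 1.

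**Figure D4:**
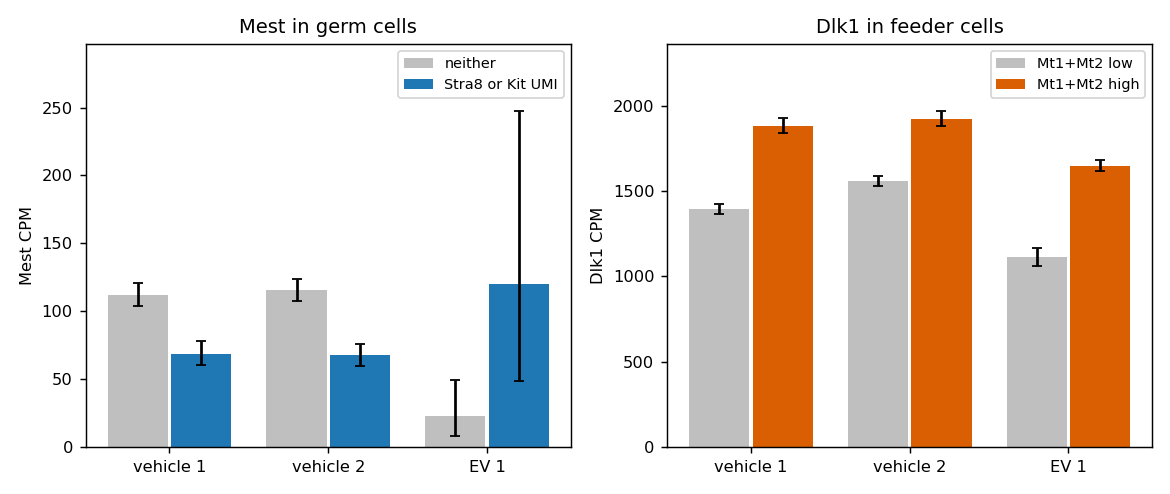
Left, Mest CPM in germ cells with a UMI of Stra8 or Kit (blue) and without (grey). Right, Dlk1 CPM in feeder cells above (orange) and at or below (grey) the median of Mt1 and Mt2. Bars are sums over cells of a library with exact Poisson 95% intervals. Mest is lower in cells with Stra8 or Kit in both vehicle libraries, and Dlk1 is higher in metallothionein-high feeder cells in all 3.

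The second comparison set EV 1 beside the vehicle libraries. With 1 EV library there is no test, and a gene was counted as past the fold where its log2 ratio to the vehicle mean was at least 1 in size, EV 1 lay outside the vehicle range and the class held at least 50 UMIs. In feeder cells 0 of the 4 imprinted genes with enough UMIs were past the fold, where 2.42% of 12877 genes were past it upwards and 4.90% downwards. The log2 ratio was -0.09 for Dlk1, -0.21 for Peg3, -0.31 for Mest and 0.29 for Plagl1, beside a median of -0.13 over all genes. Scaling by TMM or DESeq2 size factors moves that median close to 0 and Dlk1 to 0.03 and 0.04, so Dlk1 in feeder cells has no direction that holds under all scalings.

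Metallothionein-high cells made up 37.6%, 36.4% and 75.1% of feeder cells, and cells with Mki67 or Top2a UMIs 12.4%, 11.0% and 2.23%, or 4.84%, 4.22% and 1.20% at 1000 UMIs per cell. Within the metallothionein-high cells, EV 1 had 0.866 (0.843 to 0.889) times the Dlk1 level of the pooled vehicle libraries, and within the others 0.752 (0.715 to 0.791) times. Both values lay below the ratio over all feeder cells of 0.935 (0.915 to 0.956). Within cells with and without proliferation UMIs the ratio was 0.956 (0.834 to 1.09) and 0.908 (0.888 to 0.929). These ratios are scaled to the total UMIs of each state only, and no median over all genes was taken within a state. Their intervals cover counting error, while Dlk1 varied among feeder cells by more than counting gives. No direction of Dlk1 with EV treatment is read from them.

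In germ cells 5 of the 8 imprinted genes with enough UMIs were past the fold, 4 upwards and 1 downwards, where 11.5% of 13365 genes were past it upwards and 6.94% downwards. The germ sum of EV 1 was small, so that intervals were wide. Mest lay below the vehicle range, with 13 UMIs and a ratio of 0.412 (0.219 to 0.706) to the pooled vehicle libraries. Of the 6 germ cell genes, 3 also lay below it in the same sum, among them Dnd1 at 46.2 CPM against 88.8 and 86.5 CPM, and 3 lay above it, and their part in the Mest value was not tested. Dlk1, with 62 UMIs, had a ratio of 2.32 (1.77 to 2.99) and Peg3, with 27 UMIs, one of 2.19 (1.44 to 3.22). Peg10, with 8 UMIs, was past the fold at a ratio of 2.34 (0.998 to 4.70), an interval that includes 1. Rian, with 6 UMIs, had a ratio of 1.88 (0.681 to 4.16) and was past the fold, at a log2 ratio of 1.02, only through the 0.5 UMI added to each sum, since with 0.1 UMI added it was at 0.93 and 4 of the 8 genes were past it. Igf2, Meg3 and Plagl1 had ratios of 1.42, 1.69 and 1.51, and their intervals included 1 as well.

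The sum of the 10 fibroblast genes was also higher in EV 1 germ cells, at 458 CPM against 258 and 231 CPM. Of the 10, 6 lay above the vehicle range, among them Fn1 (228 CPM against 133 and 119 CPM) and Timp1 (111 CPM against 38.3 and 25.1 CPM). The other 4 lay below it, Col5a1, Col6a1 and Fbn1 on 9, 3 and 3 UMIs and Pdgfrb at 0. Their part in the higher Dlk1 and Peg3 was not tested. When cells with any feeder marker UMI were left out of the germ class, the log2 ratio of Dlk1 was 1.36 and that of Peg3 1.22, against 1.22 and 1.16 in all germ cells. When at least 4 class marker UMIs were asked for, Peg3 and Mest no longer passed the fold, at 0.76 and -0.78. The germ cells of EV 1 also had a lower share with a UMI of Stra8 or Kit, 14.1% against 31.7% and 32.9%, and 10.7% against 17.8% and 17.6% with each cell thinned to 1000 UMIs. In germ cells without either the EV to vehicle ratio of Mest was 0.198 (0.0724 to 0.431), and in those with either 1.77 (0.706 to 3.66).

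**Figure D5:**
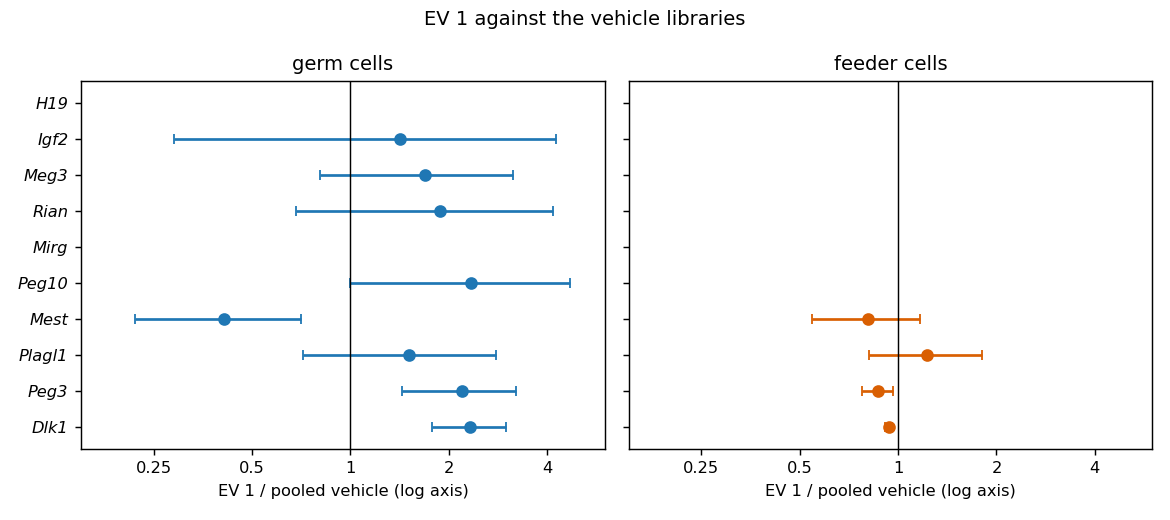
Ratio of EV 1 to the pooled vehicle libraries (log axis) for the imprinted genes with at least 50 UMIs in germ cells (left, 8 genes) and feeder cells (right, 4 genes), with exact conditional 95% intervals. Germ cell intervals are wide and those of Dlk1, Peg3 and Mest exclude 1, while feeder cell points lie between 0.809 and 1.22.

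Other imprinted genes were read from a list of 42, of which 41 were found by symbol and 34 tested between the classes. Of these, 11 were called higher in feeder cells, 14 higher in germ cells and 9 not called, with a median log2 difference of 0.01 beside 0.03 over all genes. These are 32.4% and 41.2% of the 34, beside 41.8% and 40.2% of all genes. With library totals the counts were 9 and 18, and without vehicle 2 they were 7 and 13. The largest differences towards feeder cells were those of Grb10 (2.98 ± 0.154), an adaptor that dampens insulin signalling, Gnas (2.69 ± 0.162), a G protein subunit, and Igf2r (2.52 ± 0.159), the receptor that removes Igf2. Towards germ cells they were those of Cdkn1c (-5.74 ± 0.203), a cyclin-dependent kinase inhibitor, Ndn (-5.12 ± 0.283), a growth suppressor, and Phlda2 (-5.11 ± 0.260), a restrainer of placental growth. Of the 14 germ cell calls, 4 (Ascl2, Nap1l5, Ndn and Phlda2) entered the test only through their germ cell level, Ndn and Phlda2 with at most 0.732 and 0.930 CPM in feeder cells. Cdkn1c had 228, 237 and 246 CPM in germ cells and 5.02, 3.16 and 0.737 CPM in feeder cells.

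Of 20 genes that set, keep or remove methylation and imprints, 18 were tested, with 4 called higher in feeder cells, 10 in germ cells and 4 not called, at a median of -0.62. These are 22.2% and 55.6% of the 18, beside 41.8% and 40.2% of all genes, and the feeder count was 2 without vehicle 1 and 2 without vehicle 2. Towards feeder cells were Tet2 (4.69 ± 0.151) and Tet1 (0.68 ± 0.169), which oxidise methylated cytosine, and Zfp57 (1.00 ± 0.186), which guards imprints. Towards germ cells were Ctcfl (-4.96 ± 0.646), a germ cell paralog of Ctcf, the chromatin remodeller Hells (-4.62 ± 0.20) and Uhrf1 (-3.56 ± 0.126), which guides Dnmt1 to copied DNA. With library totals Tet1 was at 0.31 (edgeR adjusted p = 0.102) and no longer called, and the counts became 2 and 14. Hells had 1444, 1442 and 1114 CPM in germ cells and 60.4, 52.2 and 15.9 CPM in feeder cells. Ctcfl had 36, 35 and 1 UMIs in germ cells and 1, 0 and 1 in feeder cells, so it entered the test only through its germ cell level.

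Of 15 genes of the IGF pathway, all tested, 10 were called higher in feeder cells, 4 higher in germ cells and 1, the receptor Igf1r, was not called, at a median of 1.05. These are 66.7% and 26.7% of the 15, beside 41.8% and 40.2% of all genes. With library totals Igf1r was called higher in germ cells (-0.49, edgeR adjusted p = 4.90e-06). The ligand Igf1 had the largest difference towards feeder cells (5.08 ± 0.213), followed by the binding proteins Igfbp6 (4.15 ± 0.181) and Igfbp4 (3.34 ± 0.165). Igf1 had 24.7, 27.1 and 22.1 CPM in feeder cells and 9, 10 and 1 UMIs in germ cells, the opposite order to Igf2. The binding proteins Igfbp2 (-5.34 ± 0.191), Igfbp3 (-4.69 ± 0.638) and Igfbp5 (-4.07 ± 0.389) were the largest towards germ cells. Igfbp3, with 1, 1 and 0 UMIs in feeder cells, and Igfbp5, with 2, 3 and 6, entered the test only through their germ cell level.

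Between EV 1 and vehicle, 4 of 31 other imprinted genes were past the fold upwards and 2 downwards in germ cells, and 1 upwards and 2 downwards of 27 in feeder cells. Over all genes the shares were 11.5% and 6.94% in germ cells and 2.42% and 4.90% in feeder cells, so these small counts say nothing particular about imprinted genes. In germ cells the largest ratios were those of Nap1l5, with 5 UMIs in EV 1 and a log2 ratio of 2.79, and Grb10, with 7 UMIs and 2.20. In feeder cells Cdkn1c had 48, 34 and 5 UMIs, a log2 ratio of -2.35, and Zdbf2 39, 26 and 8 UMIs, a log2 ratio of -1.40. Both are higher in germ cells, and the 6 germ cell genes were lower in EV 1 feeder cells too, with a sum of 16.3, 13.4 and 3.39 CPM. The feeder level was 2.20%, 1.33% and 0.299% of the germ level for Cdkn1c and 3.44%, 2.02% and 1.28% for Zdbf2, and the part of germ cell RNA in these values was not tested. Of the methylation genes, 1 was past the fold upwards and 3, Dppa3, Zfp57 and Trim28, downwards of 19 in germ cells. Trim28, the corepressor that Zfp57 recruits, had 99.0, 99.1 and 46.2 CPM on 15 UMIs in EV 1, a ratio of 0.466 (0.260 to 0.771). Dppa3 had 82, 77 and 0 UMIs and Zfp57 67, 70 and 0 UMIs, and their vehicle means were 0.849 and 0.729 times the level of 3 UMIs in EV 1, so that a lower level was not detectable at this depth.

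In feeder cells 0 methylation genes were past the fold upwards and 2 downwards of 17, Hells with a log2 ratio of -1.82 and Uhrf1 with -1.31. Both are known as genes of replicating cells, and the share of feeder cells with Mki67 or Top2a UMIs was 12.4% and 11.0% in the vehicle libraries and 2.23% in EV 1. The germ cell genes were also lower in EV 1 feeder cells, as given above, and the feeder level of Hells was 4.18%, 3.62% and 1.43% of its germ level, within the range of those genes in each library, while that of Uhrf1 was 7.98%, 6.05% and 3.45%, above it. The part of either in the Hells and Uhrf1 values was not tested. Of the IGF genes, Igfbp6 was past the fold upwards (1.47) and Igf2bp1 downwards (-1.06) of 13 in germ cells, and 0 of 12 were past it in feeder cells. These counts are near the shares over all genes of 11.5% and 6.94% in germ cells and 2.42% and 4.90% in feeder cells. The germ level of Igfbp6 was 7.28%, 6.21% and 19.6% of its feeder level, beside the medians of 9.74%, 8.95% and 17.0% for the fibroblast genes, whose part in the Igfbp6 value was not tested.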

How the data were processed

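Cells from clumps in culture were run on the droplet system of 10x Genomics, and per the study's methods reads were aligned to mm10 (GENCODE vM23) and counted with Cell Ranger 7.0.1. Whether intronic reads were counted is not given in the sources used here. The authors deposited these counts of UMIs as they were, not normalized. Titles of the samples gave the groups and replicate numbers. The expression of EV 2 was not analysed here; its 6794 barcodes were used only to count shared barcodes.

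As in the study, cells were kept if they had more than 400 but fewer than 4000 genes detected and a mitochondrial share below 10%, and Scrublet (scanpy 1.11.5), in place of the DoubletFinder of the study, then removed 633, 697 and 198 doublets. The vehicle libraries differed by more than sampling noise (chi-square per degree of freedom 2.31 over germ and 2.27 over feeder sums). UMIs were summed per library and class and tested with edgeR 4.0.16 (TMM, filterByExpr, quasi-likelihood, library as a block, Benjamini-Hochberg at 0.05) over all genes. Both classes of a library come from the same culture and droplets, so the library number pairs the sums. The p-values measure the spread between 3 libraries, of which 1 was EV treated. The test was tried on simulated sums with known changes first. EV 1 was compared without a test, with 0.5 UMI added to each sum, exact Poisson and conditional intervals, and Wilson intervals for shares. Sequences and positions came from RefSeq GRCm38.p6 and GENCODE vM21, an earlier release than that of the counts. No entry of the imprinted list named Phf17 was found, and Jade1 stands for it.

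The 10 genes and all lists were chosen with earlier results of these data known. The text names the 10 genes, from each wider list the 3 genes with the largest difference called in each direction and up to 2 per class past the EV fold, and up to 3 genes most like each member at r of at least 0.2. Igf1r, Copg2, Trim28, Ascl2, Sox9, Dnd1 and the single fibroblast genes were named after their values were seen, and the splits of germ cells were added after the files were seen. Alternatives covered scaling, filters, the class rule, doublets, the count added and each library left out. Versions were R 4.3.3, DESeq2 1.42.0, Python 3.11.15, numpy 2.4.6, scipy 1.17.1, pandas 2.3.3 and matplotlib 3.10.9.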

Additional observations from a re-analysis of the deposited data

Results flagged for a closer look

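Set against vehicle, EV 1 had a higher level of Peg3 in germ cells and a slightly lower one in feeder cells. Dlk1 was higher in germ cells, with no direction in feeder cells that holds under all scalings. The log2 ratio of Dlk1 was 1.22 in germ cells and -0.0935 in feeder cells, and that of Peg3 was 1.16 in germ cells and -0.21 in feeder cells. The difference between the classes was not tested, as the EV arm had 1 library. In feeder cells Dlk1 ranged from -0.14 to 0.04 and Peg3 from -0.26 to -0.08 over the alternatives, beside a median of -0.13 over all genes. As a percentage of the feeder level, Dlk1 in germ cells was below the median of 10 fibroblast genes, whose sum in germ cells was 458 CPM in EV 1 against 258 and 231 CPM. With at least 4 class marker UMIs asked for, Peg3 was at 0.76 in germ cells.

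Mest differed between germ cells with and without a UMI of Stra8 or Kit in one direction in the vehicle libraries (ratios of 0.614 and 0.583) and in the other in EV 1 (5.34, on 7 and 6 UMIs). The difference between the arms was not tested.

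Dlk1 was also present in cells that met neither class rule, which entered no comparison. Its level there was 1043 CPM in EV 1 (1006 to 1081), against 575 and 500 CPM in the vehicle libraries.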

How the results depend on the processing

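The counts of imprinted genes called between the classes, 2 higher in feeder cells and 6 in germ cells, were the same under DESeq2, its size factors, other class rules, doublets kept, every deposited barcode and library totals (an alternative chosen after seeing the data). With no filter on low counts the germ count was 7, since H19 was then called. Among the 6, Igf2 and Peg10 entered the main test only through their germ cell level, so they could be called only towards germ cells. Leaving out each library gave 2 and 6 each time and 9367 to 14149 genes called in all, against 12818. Library numbers pair the classes within a library, and the fit with no replicate block called 2 and 6 imprinted genes and 11826 genes in all. No paired analysis was possible because the EV arm had 1 library, for the comparison of EV 1 with vehicle.

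In that comparison, all genes past the fold in germ cells numbered 2458, but 5424 with 5 UMIs added and 835 at a minimum of 200 UMIs. In feeder cells they numbered 942, but 1548 at a minimum of 20 UMIs and 411 at 200, and 1 imprinted gene, Rian with 28 UMIs, was past it at the minimum of 20 against 0. Leaving out a vehicle library gave 4 to 5 imprinted genes past the fold in germ cells, with 2487 to 2552 genes in all, and 0 in feeder cells, with 982 to 1015. Rian was past the fold in germ cells at 1.02 and ranged from 0.64 to 1.72 over the alternatives. Dlk1 stayed at 1.09 to 1.36 there and Peg10 at 1.20 to 1.87, while Peg3 ranged from 0.76 to 1.36 and Mest from -1.49 to -0.78. Igf2, Meg3 and Plagl1, not past the fold, reached 1.83, 1.31 and 1.15 under some alternative, and the count of imprinted genes past it in germ cells ran from 4 to 7.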

Other observations

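Cells of neither class held 71.3, 69.4 and 78.1 CPM of Peg3 and 54.7, 45.2 and 10.7 CPM of Mest in vehicle 1, vehicle 2 and EV 1. Igf2 had 7, 9 and 1 UMIs in them and Meg3 22, 23 and 16.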
